A study of Homo sapiens with 4 samples.

Results

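The genes described here are 47 lysosome and autophagy genes, chosen by name from a list of known lysosome and autophagy genes. No measured value enters that rule, though the list was made with earlier results of these data known. They include 21 lysosomal hydrolases and hydrolase cofactors, 6 proteins of the lysosomal membrane and 6 subunits of the vacuolar proton pump. The rest are 3 transcription factors of the MiT/TFE family, TFEB, TFE3 and MITF, and 11 genes of the autophagy core. All 47 were found among the 29655 distinct gene names of the tables, and 45 of them passed the filter on low levels that left 11897 protein-coding genes for testing. Their expression was measured by bulk RNA-seq of total RNA from UMSCC74B, an established cell line from a squamous carcinoma of the head and neck. The control group was 2 libraries from cells given a control shRNA plasmid, whose genotype is given as WT. The other group was 2 libraries from cells given an shRNA plasmid against PRMT5, an arginine methyltransferase, and labelled PRMT5 KD. Both groups were grown in the same serum-containing medium and collected 72 h after the plasmids were given. The labels describe transfection and the methods of the study describe lentiviral particles, and neither states how many shRNA sequences these libraries cover. The comparison asks how the transcripts of each class stood in the PRMT5 KD libraries relative to control. The labels do not say that the libraries of a group came from separate cultures, so the p-values measure the spread between these libraries, which may be technical.

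The lysosome is an acidic compartment in which soluble hydrolases break down proteins, lipids, glycans and glycogen. The vacuolar ATPase pumps protons into it, heavily glycosylated membrane proteins line it, and most of its enzymes reach it through receptors for mannose phosphate tags. Autophagy encloses cytoplasmic material in a double membrane and delivers it to the lysosome. TFEB, TFE3 and MITF are related transcription factors that bind short DNA elements in front of many lysosomal and some autophagy genes, and the kinase complex mTORC1 keeps TFEB and TFE3 out of the nucleus in fed cells.

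The label was checked first on the targeted gene. PRMT5 (chromosome 14, 22920525 to 22929408, minus strand, GRCh38) stood at 94.3 and 84.3 CPM, counts relative to the scaled library total, in the control libraries and at 132 and 150 CPM in the PRMT5 KD libraries. The PRMT5 transcript was thus higher under the knockdown label, with a log2 fold change of 0.66 (SE 0.12, FDR = 0.0055, edgeR quasi-likelihood test). That call was lost without control replicate 2, where the log2 fold change was 0.58 (FDR = 0.068). PRMT5 protein, which the labels and the study describe as checked by immunoblot, was not analysed here. Every direction below is therefore that of the libraries labelled PRMT5 KD relative to control. Total counts per library were between 52185289 and 65964558, and ribosomal RNA took 15.3% and 14.2% of the counts in control and 26.2% and 18.02% in the PRMT5 KD libraries. Of 8 markers of squamous epithelium, 7 stayed below the filter, and KRT5, KRT6A and KRT14, keratins that define squamous cells, were at or below 0.46 CPM in all 4 libraries.

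Of the 45 genes tested, 27 were lower and 3 were higher in the PRMT5 KD libraries, and 15 were not called. Genes were called where the FDR was under 0.05 and the log2 fold change was 0.5 or more in either direction. Over all 11897 genes tested, 24.3% were called lower and 21.2% were called higher. The median log2 fold change of the 45 genes was −0.71, beside −0.01 over all genes tested. The 2 PRMT5 KD libraries both lay below the 2 control libraries in 30 of the 45 genes and both above them in 9, beside 40.6% and 39.9% of all genes tested. At a threshold of 1 in place of 0.5, 13 of the 45 were lower and 1 was higher, beside 12.9% and 8.67% of all genes tested. Scaling by total counts alone, which raised the median of all genes by 0.18 to 0.17, gave 23 lower and 5 higher among the 45, beside 18.5% and 29.5% of all genes. Correction for exon length and GC content gave 22 lower and 5 higher, beside 20.9% and 24.1%. In bulk samples, fewer cells of a type and less RNA per cell cannot be told apart.

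**Figure D1:**
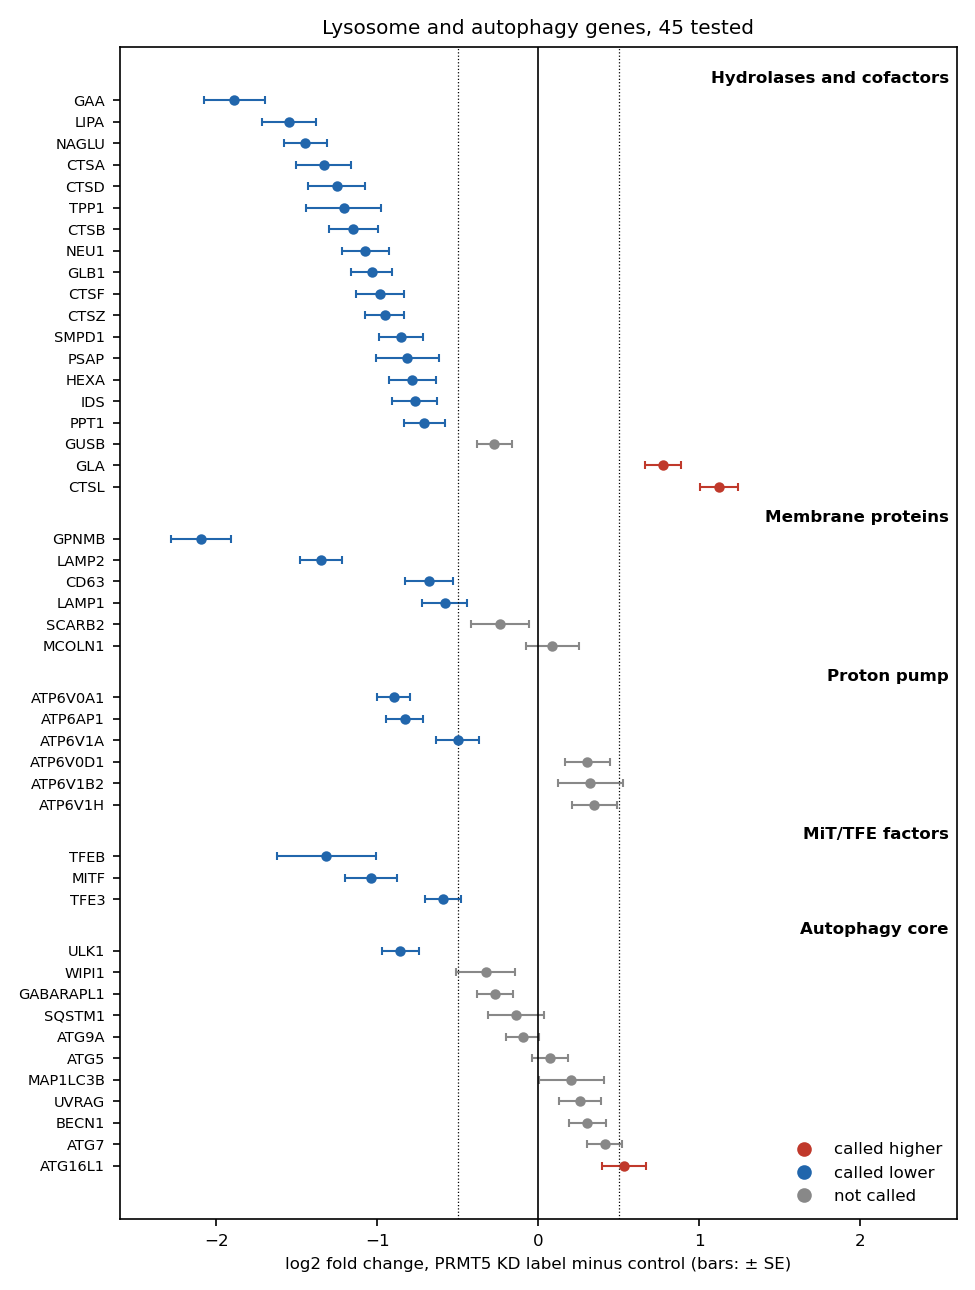
Log2 fold change (PRMT5 KD label minus control, x axis) of each of the 45 genes tested, by class, with bars of ± 1 SE and dotted lines at ± 0.5. The hydrolases lie mostly left of zero down to −1.89 in GAA, with CTSL at 1.12 and GLA at 0.78 to the right, while 9 of the 11 autophagy core genes are not called.

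The lysosomal hydrolases fell almost as a group. Of the 19 hydrolases and cofactors tested, 16 were called lower, 2 were called higher and 1, GUSB, was not called. The shares were 84.2% lower and 10.5% higher, beside 24.3% and 21.2% of all genes tested, and the median log2 fold change was −0.98. With length and GC correction 14 were called lower and the median was −0.84, and with total counts alone the median was −0.80. Among the 6 cathepsins tested, the lysosomal proteases, 5 fell and 1 rose, with a median of −1.07. Among the 13 other hydrolases and cofactors, 11 fell and 1 rose, with a median of −0.85. Summed over the 21 genes of the class, the level was 7414 and 8764 CPM in control and 4478 and 3832 CPM in the PRMT5 KD libraries.

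GAA, the acid glucosidase that breaks down lysosomal glycogen (chromosome 17, 80101533 to 80119881, plus strand), was the hydrolase with the largest decrease. It stood at 162 and 223 CPM in control and at 57.1 and 46.9 CPM in the PRMT5 KD libraries. The groups did not overlap, and the mean went from 193 ± 42.8 to 52.002 ± 7.23 CPM (SD, n = 2 each). GAA had a log2 fold change of −1.89 (SE 0.19, FDR = 0.00074). LIPA, the acid lipase that hydrolyses cholesteryl esters and triglycerides (chromosome 10, 89213569 to 89414557, minus strand), was at 428 and 504 CPM in control and at 141 and 178 CPM in the PRMT5 KD libraries. Both PRMT5 KD libraries were below both controls, with a log2 fold change of −1.55 (SE 0.17, FDR = 0.0008). Annotated LIPA exons share bases with IFIT2 and IFIT3 on the opposite strand, and whether the counting used strand is not given in the sources used here. NAGLU, an exo-enzyme of heparan sulfate degradation (chromosome 17, 42536241 to 42544449, plus strand), was at 249 and 298 CPM in control against 103 and 98.2 CPM. It fell by 1.45 on the log2 scale (SE 0.13, FDR = 0.00052), with close values within the PRMT5 KD group.

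CTSA, the serine carboxypeptidase that also protects beta-galactosidase and neuraminidase in a complex (chromosome 20, 45890144 to 45898949, plus strand), stood at 477 and 592 CPM in control and at 234 and 190 CPM in the PRMT5 KD libraries. Its log2 fold change was −1.33 (SE 0.17, FDR = 0.0014). Both partners of that complex fell too, GLB1 by 1.04 and NEU1 by 1.07 on the log2 scale. CTSD, the main aspartic protease of lysosomes (chromosome 11, 1752752 to 1764573, minus strand), was one of the most abundant genes of the class at 1486 and 1764 CPM in control, and was at 757 and 608 CPM in the PRMT5 KD libraries. The groups were well apart, with a log2 fold change of −1.25 (SE 0.18, FDR = 0.0019). CTSB, a cysteine protease with endopeptidase and dipeptidase activity, was at 685 and 813 CPM in control and at 358 and 318 CPM in the PRMT5 KD libraries. Its log2 fold change of −1.15 (SE 0.15, FDR = 0.0015) was close to that of CTSD. PSAP encodes the precursor of the saposins, which present sphingolipids to their hydrolases (chromosome 10, 71816298 to 71851251, minus strand), and had the highest control level per exon length of the 45 genes, a mean of 557 RPKM, which is CPM per kilobase of exon. It was at 1618 and 1852 CPM in control and at 1141 and 831 CPM in the PRMT5 KD libraries. The PRMT5 KD libraries lay below both controls but apart from each other, and the log2 fold change was −0.82 (SE 0.19, FDR = 0.014). The PSAP call was lost without control replicate 1 (−0.91) and without control replicate 2 (−0.71).

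The other hydrolases that fell spanned log2 fold changes from −1.21 to −0.71. TPP1, a tripeptidyl peptidase, had a log2 fold change of −1.21 with a wider error (SE 0.23, FDR = 0.0077), since its PRMT5 KD libraries were at 194 and 128 CPM. CTSF and CTSZ, further cysteine cathepsins, were at −0.98 and −0.95, and the call for CTSZ was lost with length and GC correction (−0.50). SMPD1, the acid sphingomyelinase, was at −0.85, HEXA, the alpha subunit of beta-hexosaminidase, at −0.78, IDS, which removes sulfate from heparan and dermatan sulfate, at −0.77, and PPT1, a palmitoyl thioesterase, at −0.71. In each of these 7 genes both PRMT5 KD libraries lay below both controls, as in 17 of the 19 hydrolases and cofactors tested. Over all genes tested, 40.6% lay below in this way. Without control replicate 2 the calls for TPP1 (−1.04), HEXA (−0.64), IDS (−0.69) and PPT1 (−0.66) were lost, and HEXA was at −0.39 with length and GC correction. GUSB, the beta-glucuronidase, was at 74.4 and 78.6 CPM in control and at 61.1 and 65.5 CPM in the PRMT5 KD libraries, a log2 fold change of −0.27 (SE 0.11, FDR = 0.072) that missed the threshold.

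CTSL and GLA went the other way. CTSL, a cysteine endopeptidase of lysosomes (chromosome 9, 87724051 to 87731469, plus strand), was at 126 and 143 CPM in control and at 294 and 293 CPM in the PRMT5 KD libraries. Its PRMT5 KD libraries were nearly equal and above both controls, with a mean of 293 ± 0.631 against 135 ± 11.8 CPM (SD, n = 2 each) and a log2 fold change of 1.12 (SE 0.12, FDR = 0.00079). GLA, the alpha-galactosidase that acts on globotriaosylceramide (chromosome X, 101393273 to 101408012, minus strand), was at 62.7 and 57.2 CPM in control and at 100.1 and 105 CPM in the PRMT5 KD libraries. It rose by 0.78 on the log2 scale (SE 0.11, FDR = 0.002), and its annotated exons share bases with RPL36A, a ribosomal protein gene. CTSL and GLA were called higher under all 14 other settings tried.

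CTSK and CTSH, a collagen-degrading cysteine protease and an aminopeptidase, were too low for the filter. CTSK (chromosome 1, 150794880 to 150809577, minus strand) was at 3.16 and 4.08 CPM in control and at 1.89 and 1.74 CPM in the PRMT5 KD libraries. CTSH was at 2.85 and 4.44 CPM in control and at 1.996 and 1.55 CPM in the PRMT5 KD libraries. With a looser filter, which tested 13961 genes, their log2 fold changes were −0.93 (FDR = 0.026) and −0.98 (FDR = 0.038), in the direction of most hydrolases.

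**Figure D2:**
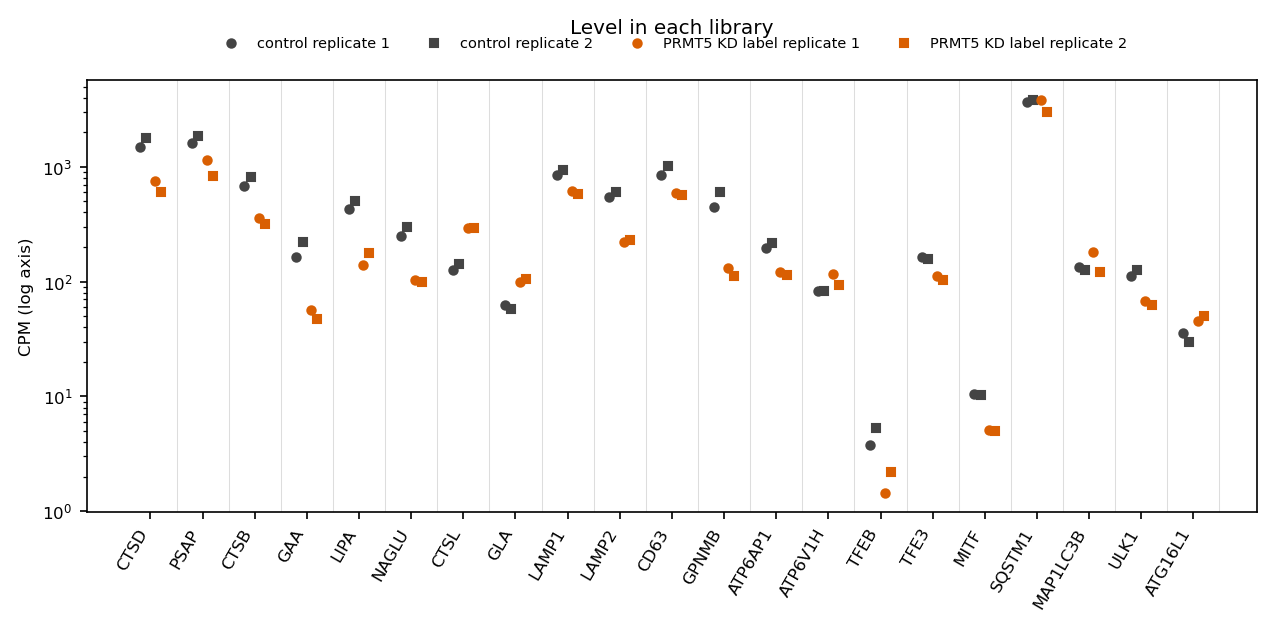
Level in CPM (y axis, log scale) of 21 genes in each library, with control in grey and the PRMT5 KD label in orange, and replicate 1 as circles and replicate 2 as squares. GPNMB drops from 443 and 601 to 131 and 113 CPM and CTSL rises from 126 and 143 to 294 and 293 CPM, while the libraries of SQSTM1 lie between 3007 and 3822 CPM in both groups.

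The membrane proteins were lower in part. Of 6 genes, 4 were called lower, 0 were called higher and 2 were not called, and the median log2 fold change was −0.63. The shares were 66.7% lower and 0% higher, beside 24.3% and 21.2% of all genes tested. GPNMB, a transmembrane glycoprotein of lysosomes and melanosomes (chromosome 7, 23235967 to 23275108, plus strand), had the largest decrease of the 45 genes. It was at 443 and 601 CPM in control and at 131 and 113 CPM in the PRMT5 KD libraries, far from overlapping. The log2 fold change was −2.10 (SE 0.19, FDR = 0.0005). LAMP2, a structural glycoprotein of the membrane that also takes part in chaperone-mediated autophagy (chromosome X, 120426148 to 120469365, minus strand), was at 542 and 607 CPM in control and at 222 and 230 CPM in the PRMT5 KD libraries. It fell by 1.35 on the log2 scale (SE 0.13, FDR = 0.00059). The related LAMP1 (chromosome 13, 113297239 to 113323672, plus strand) was at 842 and 945 CPM in control and at 613 and 582 CPM in the PRMT5 KD libraries. Its log2 fold change of −0.58 (SE 0.14, FDR = 0.013) was smaller than that of LAMP2, and the difference between the pair was not tested.

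CD63, a tetraspanin of late endosomes and lysosomes (chromosome 12, 55725323 to 55729707, minus strand), was at 848 and 1016 CPM in control and at 592 and 573 CPM in the PRMT5 KD libraries. The groups did not overlap and the log2 fold change was −0.68 (SE 0.15, FDR = 0.01). With total counts alone the calls for LAMP1 (−0.40) and CD63 (−0.50) were lost. That left 2 of the 6 genes called lower, beside 18.5% of all genes tested under that scaling. Both calls were also lost without control replicate 2 (−0.50 and −0.54), and that for LAMP1 without control replicate 1 (−0.66). SCARB2, an integral protein of the lysosomal membrane, was at 599 and 656 CPM in control and at 450 and 613 CPM in the PRMT5 KD libraries, so that the groups overlapped (log2 fold change −0.24, SE 0.18, FDR = 0.3). MCOLN1, a calcium-permeable channel, was at 44.9 and 44.5 CPM in control and at 55.1 and 40.0 CPM in the PRMT5 KD libraries, with a log2 fold change of 0.09 (SE 0.17, FDR = 0.68).

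The 3 listed transcription factors of the MiT/TFE family were all called lower, beside 24.3% of all genes tested. Their median log2 fold change was −1.04. TFEB (chromosome 6, 41683978 to 41736259, minus strand) was a low transcript, at 3.79 and 5.28 CPM in control and at 1.45 and 2.20 CPM in the PRMT5 KD libraries, from 150, 264, 69 and 105 counts. It passed the filter through the control group alone, so its fold change of −1.32 (SE 0.31, FDR = 0.013) was favoured by that filter, and its call was lost without control replicate 2 (−1.05). MITF (chromosome 3, 69739456 to 69968336, plus strand) was at 10.6 and 10.2 CPM in control and at 5.06 and 5.04 CPM in the PRMT5 KD libraries. The libraries within each group were almost equal, and MITF fell by 1.04 on the log2 scale (SE 0.16, FDR = 0.0028). TFE3 (chromosome X, 49028726 to 49043410, minus strand) was the most abundant of the 3. It was at 165 and 159 CPM in control and at 112 and 103 CPM in the PRMT5 KD libraries. Its log2 fold change was −0.59 (SE 0.11, FDR = 0.0055), and its call was lost with total counts alone (−0.41), with length and GC correction (−0.49) and without control replicate 1 (−0.56). These are transcript levels, and the cellular location of the proteins was not measured.

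The DNA element that these factors recognise was looked for in the promoters, from 250 bases before to 50 bases after the start of each gene, in RefSeq sequence of the build GRCh38.p14. Of the 47 genes, 37 had a promoter sequence. The motif CACGTG, which reads the same on both strands, stood in 9 of the 37 promoters (24.3%), beside 12.7% of the promoters of all genes tested and 8.78% of all 27305 promoters. Its extension TCACGTGA, which contains it and is also the same on both strands, stood in 5 of the 37 (13.5%), beside 2.35% of the promoters of genes tested and 1.18% of all. CACGTG stood in 5 of 16 hydrolase promoters, 3 of 5 membrane protein promoters, 1 of 3 pump promoters, 0 of 10 autophagy core promoters and 0 of 3 MiT/TFE promoters. Of the 27 genes called lower, 21 had a promoter sequence, of which 7 held CACGTG and 3 held TCACGTGA. Of the other 20 genes, 16 had one, and 2 held CACGTG and 2 held TCACGTGA. These other genes include most of the autophagy core, so class and call cannot be told apart in this split. The 8 places of TCACGTGA are shown because they differ in the response of their genes: CTSA, GAA and LAMP1 fell, while MCOLN1 and ATP6V0D1 were not called. Each line gives 30 bases of the gene's strand 5′ to 3′ with the motif in capitals.
CTSA, chr20:45891298-45891327, plus strand, motif from base −26: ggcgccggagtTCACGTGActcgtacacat
GAA, chr17:80101493-80101522, plus strand, motif from base −77: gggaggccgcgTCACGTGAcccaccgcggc
GAA, chr17:80101538-80101567, plus strand, motif from base −32: gctcccgccggTCACGTGAcccgcctctgc
LAMP1, chr13:113297199-113297228, plus strand, motif from base −29: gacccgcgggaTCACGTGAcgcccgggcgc
LAMP1, chr13:113297226-113297255, plus strand, motif from base −2: cgcggcgcagcTCACGTGAcaagcgctgcc
MCOLN1, chr19:7522571-7522600, plus strand, motif from base −42: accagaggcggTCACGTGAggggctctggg
MCOLN1, chr19:7522598-7522627, plus strand, motif from base −15: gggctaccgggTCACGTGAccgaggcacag
ATP6V0D1, chr16:67481199-67481228, minus strand, motif from base −60: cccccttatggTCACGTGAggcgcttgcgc
GAA, LAMP1 and MCOLN1 each carried a pair of the motif. A match is a string of letters in this window, and binding was not measured.

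The proton pump was divided. Of 6 genes, 3 were called lower and 3 were not called, a share of 50% lower beside 24.3% of all genes tested. The median log2 fold change was −0.10 (0.08 with total counts alone). The summed level was 906 and 954 CPM in control and 826 and 686 CPM in the PRMT5 KD libraries. ATP6V0A1, the membrane subunit that helps form the proton path (chromosome 17, 42458844 to 42522582, plus strand), was at 118 and 117 CPM in control and at 61.6 and 64.1 CPM in the PRMT5 KD libraries. It fell by 0.90 on the log2 scale (SE 0.10, FDR = 0.001), with little spread within either group. ATP6AP1, an accessory protein needed for assembly of the pump (chromosome X, 154428633 to 154436516, plus strand), was at 198 and 219 CPM in control and at 121 and 113 CPM in the PRMT5 KD libraries. It fell by 0.83 (SE 0.12, FDR = 0.0018). ATP6V1A, the catalytic subunit that binds ATP (chromosome 3, 113746770 to 113812056, plus strand), was at 317 and 347 CPM in control and at 253 and 217 CPM in the PRMT5 KD libraries. At −0.50 (SE 0.13, FDR = 0.02) it stood just inside the threshold, and it was called in only 3 of the 14 other settings.

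The other 3 pump genes had positive log2 fold changes that did not pass. ATP6V0D1, a subunit joining the membrane and cytosolic sectors, was at 85.8 and 93.6 CPM in control and at 123 and 98.5 CPM in the PRMT5 KD libraries (log2 fold change 0.30, FDR = 0.11), and was called higher with length and GC correction (0.61). ATP6V1H, a regulatory subunit, was at 82.99 and 82.1 CPM in control and at 117 and 92.5 CPM in the PRMT5 KD libraries (0.35, FDR = 0.078), and was called higher with total counts alone (0.52) and without PRMT5 KD replicate 2 (0.52). ATP6V1B2, a nucleotide-binding subunit, was at 105 and 95.8 CPM in control and at 151 and 100.3 CPM in the PRMT5 KD libraries (0.32, FDR = 0.22), and was called higher without PRMT5 KD replicate 2 (0.59). In all 3, PRMT5 KD replicate 1 was the highest of the 4 libraries.

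The autophagy core as a whole was not lower. Of its 11 genes, 1 was called lower, 1 was called higher and 9 were not called, and the median log2 fold change was 0.07. Each direction was 9.09% of the class, beside 24.3% lower and 21.2% higher over all genes tested. The summed level was 4467 and 4625 CPM in control and 4659 and 3738 CPM in the PRMT5 KD libraries. SQSTM1, the p62 receptor that links ubiquitinated cargo to autophagosomes (chromosome 5, 179806398 to 179838078, plus strand), made up most of that sum. It was at 3689 and 3822 CPM in control and at 3810 and 3007 CPM in the PRMT5 KD libraries, so that the groups overlapped. The log2 fold change was −0.14 (SE 0.17, FDR = 0.52), and its sign changed with total counts alone (0.04) and with length and GC correction (0.11). MAP1LC3B, which is lipidated and inserted into the autophagosome membrane (chromosome 16, 87383953 to 87404779, plus strand), was at 135 and 127 CPM in control and at 182 and 120 CPM in the PRMT5 KD libraries. The PRMT5 KD libraries lay on either side of the controls, with a log2 fold change of 0.20 (SE 0.20, FDR = 0.43). MAP1LC3B has a near-identical copy, MAP1LC3B2, with which its reads could be divided, and CTSL has related copies too.

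ULK1, the kinase that starts autophagosome formation (chromosome 12, 131894622 to 131923150, plus strand), was the gene called lower. It was at 112 and 125 CPM in control and at 67.8 and 63.0 CPM in the PRMT5 KD libraries. The log2 fold change was −0.86 (SE 0.12, FDR = 0.0017), and with length and GC correction it was −0.47 and no longer called. ATG16L1, which directs the lipidation of LC3 proteins to the forming membrane (chromosome 2, 233210051 to 233295674, plus strand), was the gene called higher. It was at 35.9 and 30.1 CPM in control and at 45.01 and 50.1 CPM in the PRMT5 KD libraries. The log2 fold change was 0.53 (SE 0.14, FDR = 0.018), and the call was lost without control replicate 2 (0.41) and without PRMT5 KD replicate 2 (0.46). ATG7, the activating enzyme of both conjugation systems, was just outside the fold threshold at 86.4 and 92.3 CPM in control and at 124 and 114 CPM in the PRMT5 KD libraries (log2 fold change 0.41, SE 0.11, FDR = 0.021). It was called higher with total counts alone (0.59) and with length and GC correction (0.65).

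The remaining 6 core genes spanned log2 fold changes from −0.33 to 0.30. BECN1 and UVRAG, subunits of the lipid kinase complex that marks the forming membrane, were at 0.30 (FDR = 0.065) and 0.26 (FDR = 0.13). ATG5, the partner of ATG12 in conjugation, was at 0.07, and ATG9A, a lipid scramblase, was at −0.10. GABARAPL1, a relative of MAP1LC3B, was at −0.27 (FDR = 0.084), and WIPI1, a reader of the lipid mark, was at −0.33 (FDR = 0.18) and was called lower without PRMT5 KD replicate 1 (−0.56). BECN1, UVRAG and ATG5 lay higher in both PRMT5 KD libraries than in both controls, and GABARAPL1 and ATG9A lay lower, though none of the 5 was called. Of all 11 core genes, 5 lay above and 3 lay below in this way, beside 39.9% and 40.6% of all genes tested.

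A wider list of 127 genes from the same organelle and pathway, none of them among the 47, was counted in the same way. Of 122 tested, 48 were called lower and 10 were called higher, and the median log2 fold change was −0.22. The shares were 39.3% lower and 8.2% higher, beside 24.3% and 21.2% of all genes tested. Among 29 further genes listed with the hydrolases, not all of them hydrolases, 22 were lower and 1 was higher, with a median of −0.89. The largest decreases were in PCYOX1, a prenylcysteine oxidase, at 150 and 183 CPM in control against 28.3 and 26.0 CPM (log2 fold change −2.62), and in GALC, the galactosylceramidase, at 64.4 and 75.9 CPM against 14.4 and 12.7 CPM (−2.37). The gene that rose was CTSS, a cysteine cathepsin typical of antigen-presenting cells, at 24.1 and 26.9 CPM in control against 149 and 106 CPM (2.32, SE 0.19, FDR = 0.00044). The other 2 cathepsins tested, both named after their values were seen, were CTSO, which was called lower (−0.96), and CTSC, which was not called (−0.38, FDR = 0.11).

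Among 18 further membrane proteins, 10 were lower and 0 were higher, with a median of −0.55. The shares were 55.6% lower and 0% higher, beside 24.3% and 21.2% of all genes tested. TPCN1, an endolysosomal cation channel, went from 197 and 266 CPM to 40.5 and 36.2 CPM (log2 fold change −2.59), and SLC17A5, the sialic acid exporter, from 94.8 and 120 CPM to 34.9 and 34.7 CPM (−1.63). Of 9 genes that sort enzymes to the lysosome, 6 were lower and 0 were higher, with a median of −0.77. That was 66.7% lower, beside the same 24.3% of all genes tested. SORT1, the sorting receptor sortilin, was at 174 and 207 CPM in control and at 17.8 and 18.2 CPM in the PRMT5 KD libraries. Its log2 fold change of −3.41 (SE 0.14, FDR = 0.00015) was the largest decrease of the wider list. IGF2R, the large receptor for mannose phosphate tags, was at 2466 and 2791 CPM in control against 1329 and 1033 CPM (−1.15, SE 0.18, FDR = 0.0028). M6PR, the other receptor for these tags, was not called. It was at 340 and 351 CPM in control against 426 and 418 CPM (0.29, SE 0.12, FDR = 0.082, edgeR).

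Among 11 further pump genes tested, 3 were higher and 1 was lower, with a median of 0.29. The shares were 27.3% higher and 9.09% lower, beside 21.2% and 24.3% of all genes tested. ATP6V1F and ATP6V0B, a cytosolic and a membrane subunit, rose by 0.92 and 0.80 on the log2 scale, the first from 35.1 and 35.8 CPM to 75.1 and 59.0 CPM and the second from 70.0 and 71.6 CPM to 127 and 119 CPM. ATP6AP2, the partner of ATP6AP1 in pump assembly, was at 185 and 227 CPM in control against 109 and 91.4 CPM (−1.04, FDR = 0.0022). Both accessory proteins of the pump were thus called lower. Among 30 further autophagy core genes, 5 were lower, 3 were higher and 22 were not called, with a median of −0.00. The shares of 16.7% lower and 10% higher were below those over all genes tested. ATG4D, an LC3-processing protease, and ATG3, the conjugating enzyme for LC3, rose by 0.68 and 0.63, and ATG16L2, a homologue of ATG16L1, and TMEM41B, a lipid scramblase, fell by 1.28 and 1.09.

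**Figure D3:**
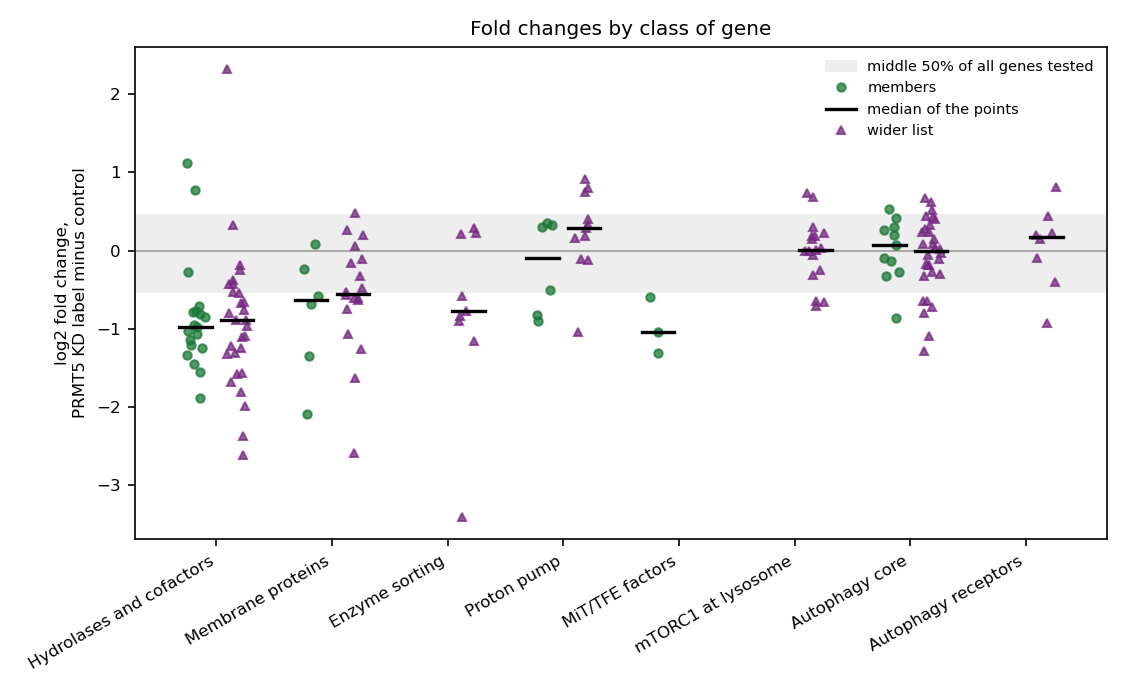
Log2 fold change (PRMT5 KD label minus control, y axis) of each gene tested, by class, with circles for the 47-gene list, triangles for the wider list and black bars for medians. The grey band holds the middle 50% of all genes tested (−0.53 to 0.45), and the hydrolase medians of −0.98 and −0.89 lie below it while the autophagy core medians of 0.07 and −0.00 lie inside it.

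Markers of other cell types were also read, and only some of them were lower. All 6 fibroblast markers tested were called lower, beside 24.3% of all genes tested. Their summed level was 629 and 727 CPM in control and 87.6 and 97.2 CPM in the PRMT5 KD libraries. COL3A1, at a mean of 18.4 RPKM in control and 0.482 in the PRMT5 KD libraries, passed the filter through the control group alone. Among 8 macrophage and osteoclast markers the sum went from 42.7 and 50.9 CPM to 5.53 and 5.77 CPM, and in control it was mostly CD14, a lipopolysaccharide co-receptor, and ACP5, itself a lysosomal phosphatase. CD14 and ACP5 were the only 2 of the 8 tested, and both were called lower. ACP5, at a mean of 1.74 RPKM in control and 0.255 in the PRMT5 KD libraries, passed the filter through the control group alone. Of the 6 below the filter, PTPRC, AIF1 and TYROBP were at or below 0.1 CPM in all 4 libraries, and CSF1R was at 1.06 CPM in both controls and at 1.11 and 0.42 CPM in the PRMT5 KD libraries. The scavenger and mannose receptors CD163 and MRC1 lay higher in both PRMT5 KD libraries than in both controls. So did 39.9% of all genes tested. MRC1 was at 0.88 and 0.44 CPM against 1.68 and 2.28 CPM, from 35, 22, 80 and 109 counts. CD163 was at 0.15 and 0.08 CPM against 0.44 and 0.17 CPM, from only 6, 4, 21 and 8 counts. Of the squamous markers, TP63, a transcription factor of basal epithelium, was the only 1 of 8 tested and was called lower. It was at 5.51 and 6.60 CPM in control against 1.74 and 3.01 CPM (log2 fold change −1.35, FDR = 0.011). TP63, at a mean of 0.809 RPKM in control and 0.318 in the PRMT5 KD libraries, also passed the filter through the control group alone. The falls of COL3A1, ACP5 and TP63 were thus favoured by that filter. KRT14, KRT17 and SFN, all at or below 1.80 CPM and untested, lay higher in both PRMT5 KD libraries than in both controls. The counts of KRT14 were 0 and 0 in control and 11 and 22 in the PRMT5 KD libraries. The summed squamous markers were at 6.87 and 7.498 CPM in control and at 4.56 and 7.93 CPM in the PRMT5 KD libraries, and the 4 melanocyte markers, with MLANA at 0 in all libraries, at 1.97 and 2.12 CPM against 1.98 and 2.97 CPM. The part of the fibroblast genes, of CD14 and ACP5 and of the ribosomal RNA share in the lower levels of the hydrolases and membrane proteins was not tested.

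**Figure D4:**
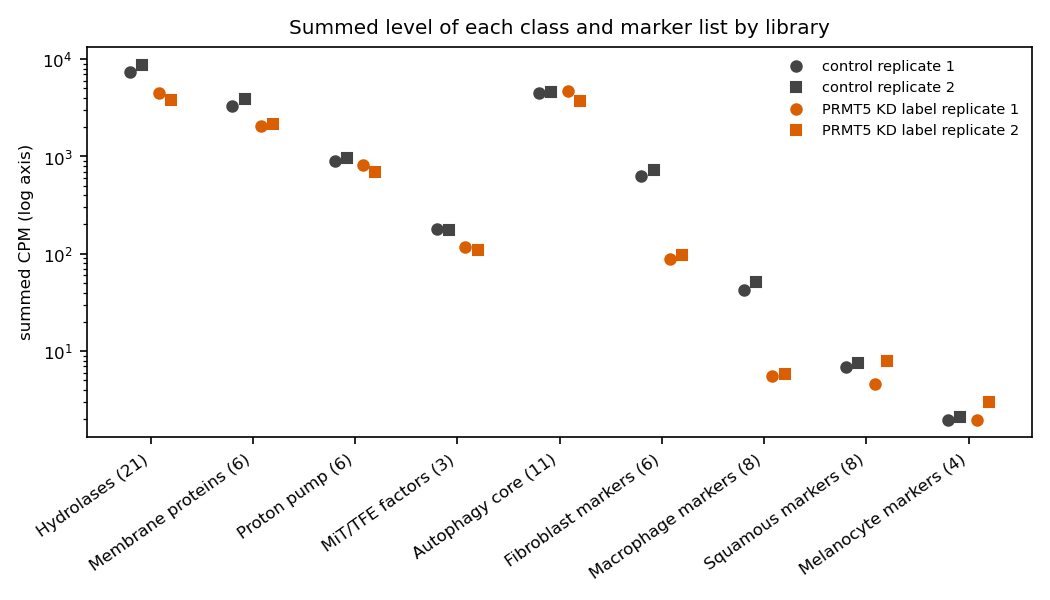
Summed CPM (y axis, log scale) of each class of genes and each marker list in the 4 libraries, with the number of genes in parentheses. The hydrolase sum goes from 7414 and 8764 to 4478 and 3832 CPM and the fibroblast marker sum from 629 and 727 to 87.6 and 97.2 CPM, while the squamous marker sum, whose genes differ in sign, overlaps between the groups.

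The libraries of a group differed in the same genes. Control replicate 2 lay above control replicate 1 in 35 of the 45 genes and in 18 of the 19 hydrolases, with a median log2 difference of 0.24 for the hydrolases, beside 6313 of 11897 genes and a median of 0.01 overall. PRMT5 KD replicate 2 lay below PRMT5 KD replicate 1 by a median of 0.16 for the hydrolases, beside a median difference of 0.00 over all genes. Both gaps were smaller than the median log2 fold change of −0.98 between the groups. Of the 27 genes called lower, 15 were called lower in all 14 other settings tried. These were CTSA, CTSB, CTSD, CTSF, GLB1, GAA, NAGLU, NEU1, SMPD1 and LIPA among the hydrolases, LAMP2 and GPNMB among the membrane proteins, ATP6V0A1 and ATP6AP1 of the pump, and MITF. Without control replicate 2 the number called lower was 18, and without PRMT5 KD replicate 1 it was 28.

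**Figure D5:**
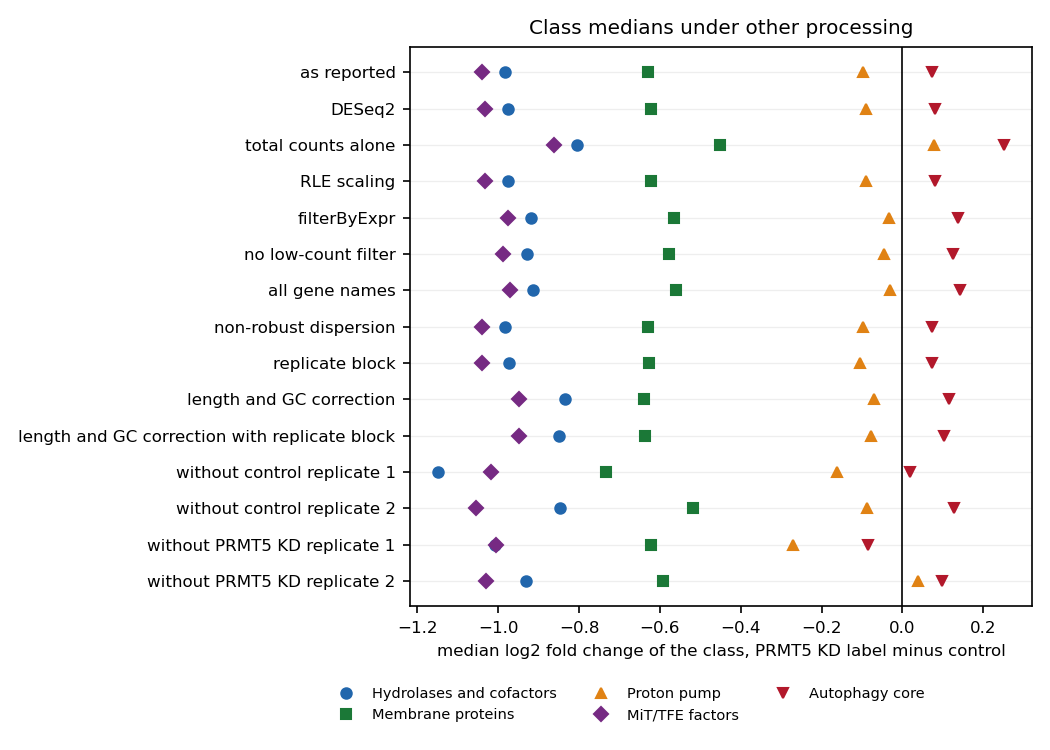
Median log2 fold change of each class (x axis, PRMT5 KD label minus control) as reported and under the 14 other settings (rows). The hydrolase median stays between −1.15 and −0.80 and the MiT/TFE median between −1.05 and −0.86, while the pump median runs from −0.27 to 0.08 and the autophagy core median from −0.09 to 0.25.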

How the data were processed

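Total RNA of 4 UMSCC74B libraries, made with a directional kit, was sequenced. The authors deposited estimated counts per gene, not normalized, in 1 table per library, with 86.0% to 86.8% of values whole. The submitters' processing notes name FastQC, Trim Galore, STAR, Salmon, DESeq2 and GRCh38 without roles, while the methods describe uniquely mapped reads counted on protein-coding genes. The tables also list non-coding genes, so the counting program is uncertain. Each table holds 29744 entries, of which 28 had names turned into dates (0.150% to 0.161% of counts) and were left out, and entries of the same name were summed. Of 29655 distinct names, 21877 matched GENCODE release 44 by symbol, 1147 by RefSeq gene number and 1530 by synonym, 63 were ambiguous and 5038 were unmatched.

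Estimated counts were rounded, and protein-coding genes were kept where the RPKM, on union exon length, reached 0.5 in each library of the control or the PRMT5 KD group. They were compared with the quasi-likelihood test of edgeR 4.0.16 (robust, TMM, no replicate term, R 4.3.3), with Benjamini-Hochberg adjustment over 11897 genes. CPM values use TMM-scaled totals. Alternatives were DESeq2 1.42.0, other scalings and filters, all gene names, non-robust dispersion, a replicate term, length and GC correction, and each library left out. At 2 libraries per group the smallest permutation p is 0.333, so none is given, and tests for outlying libraries do not apply. The members, lists and rules were chosen with earlier results of these data known. Genes given with full values were the most changed of the called genes per class and direction (5 for hydrolases, 3 for other classes, 2 for the wider list), those nearest the threshold, and PRMT5, LAMP1, LAMP2, CTSB, CTSD, PSAP, TFEB, TFE3, MITF, SQSTM1, MAP1LC3B, GPNMB and CTSK. CTSL, LIPA and other members with overlapping or related genes may share reads: exons of 23 of the 47 share annotated bases with another gene, 15 of them with a protein-coding gene. The procedure was tested on simulated data.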

Additional observations from a re-analysis of the deposited data

How the results depend on the processing

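Beside 27 lower and 3 higher calls among the 45 genes, a fold threshold of 1 gave 13 lower and 1 higher. Total counts alone gave 5 higher, as did length and GC correction with and without the replicate block. With 1 library left out the lower calls were 18 to 28 and the higher calls 2 to 4, the lowest lower count without control replicate 2. The wider list had 58 calls, 23 of them at a fold threshold of 1 and 38 to 60 with 1 library left out, again lowest without control replicate 2. Over all genes that left-out library gave 1348 higher and 1758 lower calls, against 2520 and 2896, and leaving out control replicate 1 gave 1730 and 2131. PRMT5 ranged from 0.57 to 0.78 with 1 library left out. Signs turned only in genes that were not called. SCARB2 was 0.18 with length and GC correction, 0.16 with the block added and −0.47 to 0.0052 with 1 library left out. SQSTM1 was 0.035 with total counts alone, 0.11 with length and GC correction, 0.10 with the block added and −0.28 to 0.029 with 1 library left out. ATG9A was 0.080 with total counts alone, 0.034 with length and GC correction and 0.033 with the block added. MCOLN1 ranged from −0.12 to 0.31 and MAP1LC3B from −0.087 to 0.48 with 1 library left out. The cause was not tested. Replicate numbers shared by the groups are not stated to pair the libraries. With the replicate block 27 genes were lower and 3 higher, and no call of the 45 changed. Deviations of same-numbered libraries correlated at −0.101, and crossed pairing, chosen after seeing the data, also gave 27 lower and 3 higher.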

Other observations

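Regulators of mTORC1 at the lysosome and autophagy receptors, both from the wider list, did not move as a class. Of 17 mTORC1 genes, 3 were lower, 2 were higher and 12 were not called, with a median log2 fold change of 0.00. FNIP2, a partner of folliculin, was at 51.7 and 45.7 CPM in control and at 90.9 and 71.6 CPM in the PRMT5 KD libraries (0.74, SE 0.15, FDR = 0.0075, edgeR). RHEB, the GTPase that activates mTORC1, was at 66.9 and 69.7 CPM in control against 114 and 106 CPM (0.69, SE 0.11, FDR = 0.0028). TSC2, part of the complex that switches RHEB off, was at 109 and 116 CPM in control against 71.3 and 71.3 CPM (−0.66, SE 0.11, FDR = 0.003), and RRAGB, a GTPase that brings mTORC1 to the lysosome, was at 14.9 and 14.1 CPM against 8.43 and 9.33 CPM (−0.71, SE 0.15, FDR = 0.0079). The groups did not overlap in any of these 4 genes, which were chosen as the most changed of those called. Over all genes tested, both PRMT5 KD libraries lay above both controls in 39.9% and below them in 40.6%.

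Of 8 autophagy receptors, 1 was lower, 1 was higher and 6 were not called, with a median of 0.17. The called pair were the related mitophagy receptors BNIP3 and BNIP3L. BNIP3 was at 72.5 and 73.5 CPM in control and at 124 and 133 CPM in the PRMT5 KD libraries (0.82, SE 0.11, FDR = 0.0015). BNIP3L was at 69.2 and 85.9 CPM in control and at 47.2 and 34.2 CPM in the PRMT5 KD libraries (−0.93, SE 0.19, FDR = 0.0086).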
